A study of Mus musculus with 6 samples.

Results

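Inhibitory receptors are surface proteins that T cells display after activation and that restrain signalling once they meet their ligands. Several carry short tyrosine motifs in their tails that recruit phosphatases, while others compete with a stimulatory receptor for a shared ligand. The nuclear factor Tox is best known for keeping chronically stimulated CD8 T cells in the exhausted state, in which several of these receptors are displayed together. The data described here are those of 9 genes, taken by name from the deposited transcript table: Pdcd1, Havcr2, Lag3, Tigit, Ctla4, Cd160, Btla, Cd244 and Tox. They held 19 of the 93480 transcripts in the table and were 9 of its 38483 genes. All 9 passed the filter on low counts. Coordinates are on GRCm38, as the table gives them.

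RNA was sequenced from mouse T cells of the B10.RIII background, in 3 libraries from Il17a knockout animals (labelled IL-17A-/- Knockout) and 3 from wild-type animals (labelled IL-17A+/+ wild-type). In all 6 libraries, CD4+CD62L+ cells were selected from spleen and cultured for 3 days. The medium held 1 ng/ml of TGF-β with 10 ng/ml of both IL-6 and IL-23, and IFN-γ and IL-4 were blocked with antibodies (10 µg/ml of each). These conditions drive helper T cells toward the Th17 state. The labels number the libraries 1 to 3 in each genotype. They do not say how many animals stand behind a library or what a number marks, so p-values measure the spread between these libraries.

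The 6 libraries held 47335736 to 49743762 estimated counts each. Expression is given in CPM, counts scaled to the size of each library with TMM factors. Il17a itself was at 1.11, 0 and 0.0202 CPM in knockouts 1, 2 and 3, against 160.6, 211.1 and 107.8 CPM in the wild-type libraries, which matches the labels. Libraries of the same number resembled each other. What set a library apart from its genotype's mean correlated at 0.60, 0.45 and 0.64 within numbers 1, 2 and 3. Between different numbers the correlations were -0.17 to -0.47. Deviations from a genotype's mean add up to 0, so these negative values follow in part from the positive ones. On the same-number values, knockout 1 and wild-type 1 are called pair 1 below, and so on. The number 1 libraries stood apart in the CD8 coreceptor gene Cd8a, with 425 CPM in knockout 1, 257 CPM in wild-type 1 and only 33.7 to 66.1 CPM in the other 4. The selected cell type's own marker Cd4 reached 246, 634 and 380 CPM in knockouts 1, 2 and 3, against 524, 580 and 491 CPM in wild-types 1, 2 and 3. Xist, which female cells transcribe, had 2.58, 0 and 627 CPM in knockouts 1, 2 and 3, against 567, 623 and 664 CPM in wild-types 1, 2 and 3. In pairs 1 and 2, but not in pair 3, the genotypes thus also differed in sex-linked transcripts.

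Per unit of transcript length, Ctla4 was the most abundant of the 9 genes and Cd244 the least. Levels per length are given in TPM, the estimated counts divided by transcript length and scaled to the same sum in every library. The levels of Ctla4 averaged 643 ± 207 TPM in knockout and 723 ± 166 TPM in wild-type libraries (SD, n = 3 each). Lag3 followed at 193 ± 106 TPM in knockout and 184 ± 117 TPM in wild-type libraries, then Tigit at 76.3 ± 52.2 and 56.8 ± 23.4 TPM, and Pdcd1 at 52.5 ± 47.0 and 21.7 ± 10.2 TPM. Each of Ctla4, Lag3 and Tigit was above the next gene in that order in 6 of 6 libraries.

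From Pdcd1 downward the neighbours overlapped. Pdcd1 was above Btla in 4 of 6 libraries, Btla (18.9 ± 6.31 TPM in knockout and 19.2 ± 7.50 TPM in wild-type libraries) above Cd160 in 5 of 6, Cd160 above Havcr2 in 4 of 6 and Havcr2 above Tox in 4 of 6. Havcr2 averaged 2.44 ± 1.56 TPM in knockout and 0.919 ± 0.545 TPM in wild-type libraries, and Tox 1.38 ± 0.257 and 1.20 ± 0.749 TPM. Cd244 was below Tox in 6 of 6 libraries, at 0.410 ± 0.125 TPM in knockout and 0.342 ± 0.0389 TPM in wild-type libraries, and rested on only 56 to 104 estimated counts per library.

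**Figure D1:**
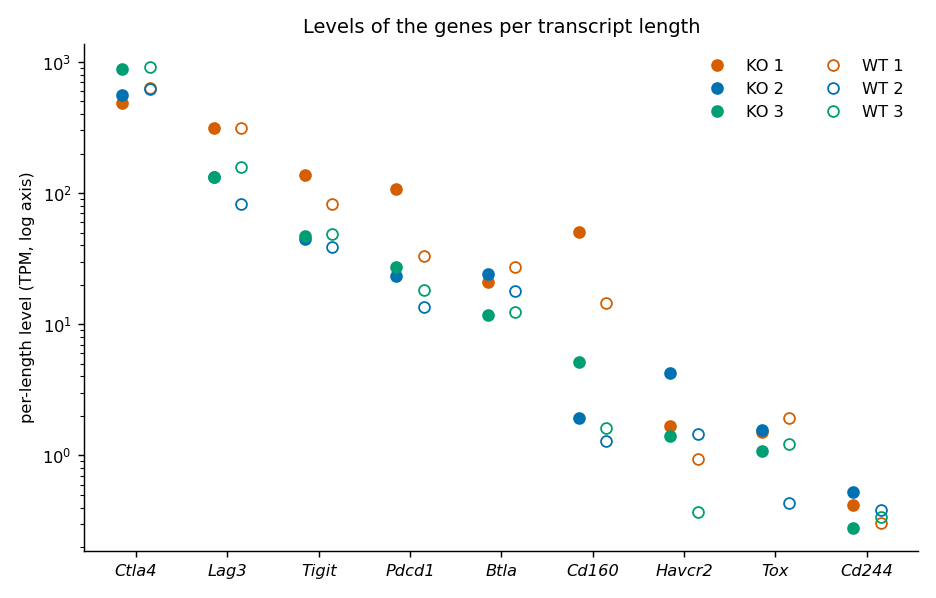
Level of each gene per transcript length in TPM, on a log axis, in the 6 libraries, with knockout libraries as filled circles to the left and wild-type libraries as open circles to the right of each gene, coloured by replicate number. Ctla4 lies between 489 and 914 TPM and Cd244 between 0.280 and 0.530 TPM, and Cd160 spreads widest on the log axis, from 1.28 to 50.2 TPM.

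The study's comparison is knockout against wild-type. Pdcd1, Havcr2 and Cd160 were higher in the knockout library of every pair, and these 3 of the 9 genes rose in the DESeq2 fit that took the replicate number as a block (called the paired DESeq2 fit). In that fit 2.68% of all genes with an adjusted p were called, with 1.08% called higher and 1.59% called lower in the knockout. Without pair 1, 2 or 3 that fit called 1 (Havcr2), 2 (Pdcd1 and Cd160) and 1 (Pdcd1) of the 9, against 1.16%, 1.73% and 0.987% of all genes. In edgeR's quasi-likelihood test without a block, the main test, 0 of the 9 and 0.0% of 15121 genes passed the threshold of 0.05 after Benjamini-Hochberg adjustment. Without knockout 1 it called 0.00641% of all genes, 1 gene that was lower in the knockout and none of the 9. In edgeR 253 genes, and none of the 9, had an unadjusted p under 0.05. DESeq2 without the block also called none of the 9, against 0.0862% of all genes (0.053% higher and 0.0331% lower in the knockout). The paired edgeR and limma-voom fits also called 0 genes, with 3 of the 9 at an unadjusted p under 0.05 in each, against 9.73% and 10.9% of all genes. The calls of Pdcd1, Havcr2 and Cd160 therefore rest on the paired DESeq2 fit, and the word rose is used below only for genes past that fit. The CPM ranges of the genotypes overlapped for all 9 genes, whereas they did not overlap for 6.14% of all tested genes. A difference in a mixed culture may reflect more cells of a type or more RNA per cell, and the deposited bulk values cannot tell these apart.

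**Figure D2:**
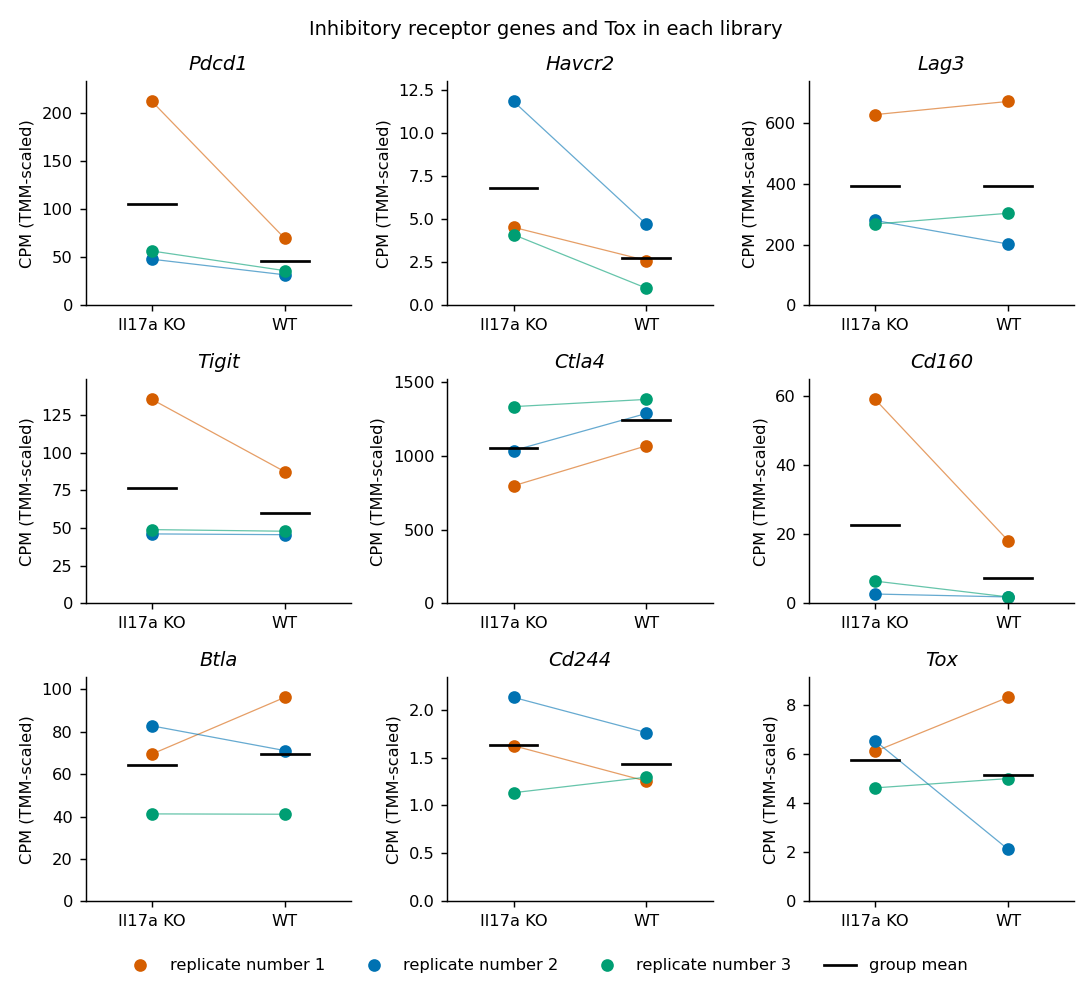
CPM of each gene in each library, knockout on the left and wild-type on the right of every panel, with lines joining libraries of the same replicate number and black bars at the group means. The lines of Pdcd1, Havcr2 and Cd160 all run higher on the knockout side, those of Ctla4 all run lower, and those of Lag3, Btla, Cd244 and Tox cross directions.

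Pdcd1 encodes PD-1, the receptor for PD-L1 and PD-L2 whose tail recruits the phosphatase SHP-2. Pdcd1 (ENSMUSG00000026285, chromosome 1, 94038307 to 94052553, minus strand) was at 211.7, 47.99 and 56.5 CPM in knockout libraries 1, 2 and 3, against 69.6, 31.8 and 36.1 CPM in wild-type libraries 1, 2 and 3. Knockout 1 was the highest of the 6 libraries and wild-type 1 the highest of its genotype, and the groups overlapped because wild-type 1 lay above knockouts 2 and 3. The log2 ratios of CPM + 0.5, knockout over wild-type, were 1.60, 0.59 and 0.64 in pairs 1, 2 and 3. A log2 change of 0.94 was estimated in the paired DESeq2 fit (SE 0.21, adjusted p 0.00132), and the unpaired edgeR change was 1.20 (SE 0.62, adjusted p 0.9999). Paired edgeR and paired limma-voom gave adjusted p-values of 0.374 and 0.237. Without pair 1 the paired DESeq2 change was 0.63 (adjusted p 0.0901), so the call was lost with that pair, and without knockout 1 alone the unpaired edgeR change was 0.18.

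Havcr2 encodes TIM-3, a receptor for galectin-9 and CEACAM1 that terminally differentiated T cells share with myeloid and dendritic cells. Havcr2 (ENSMUSG00000020399, chromosome 11, 46454935 to 46481255, plus strand) was at 4.54, 11.8 and 4.11 CPM in knockout libraries 1, 2 and 3, against 2.61, 4.71 and 1.00 CPM in wild-type libraries 1, 2 and 3. Number 2 was the high library in both genotypes, and wild-type 2 lay above knockouts 1 and 3. Within pairs 1, 2 and 3 the log2 ratios were 0.70, 1.24 and 1.62. The paired DESeq2 log2 change was 1.36 (SE 0.34, adjusted p 0.00620), against an unpaired edgeR change of 1.3 (SE 0.66, adjusted p 0.9999). Paired edgeR and paired limma-voom gave adjusted p-values of 0.366 and 0.236. These levels came from 48 to 579 estimated counts per library. Unlike Pdcd1, Havcr2 kept its call without pair 1 (1.67, adjusted p 0.0153) and lost it without pair 2 (1.38, adjusted p 0.363) or pair 3 (1.06, adjusted p 0.542), and without knockout 2 the unpaired edgeR change was 0.62.

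Cd160 encodes a lipid-anchored receptor that binds HVEM, the ligand it shares with BTLA, and is best known from NK cells and CD8 T cells. Cd160 (ENSMUSG00000038304, chromosome 3, 96798763 to 96829351, minus strand) was at 59.0, 2.72 and 6.46 CPM in knockout libraries 1, 2 and 3, against 18.2, 1.87 and 1.88 CPM in wild-type libraries 1, 2 and 3. The number 1 libraries held by far the highest values of each genotype, and wild-type 1 lay above knockouts 2 and 3. Its log2 ratios, knockout over wild-type, were 1.67, 0.44 and 1.55 within pairs 1, 2 and 3. The paired DESeq2 log2 change was 1.36 (SE 0.28, adjusted p 2.62e-04), and the unpaired edgeR change was 1.63 (SE 1.34, adjusted p 0.9999). Paired edgeR and paired limma-voom gave adjusted p-values of 0.364 and 0.148. The paired DESeq2 call was lost without pair 1 (1.17, adjusted p 0.675) or pair 3 (1.16, adjusted p 0.0578), and without knockout 1, with wild-type 1 kept, the unpaired edgeR change turned to -0.68.

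**Figure D3:**
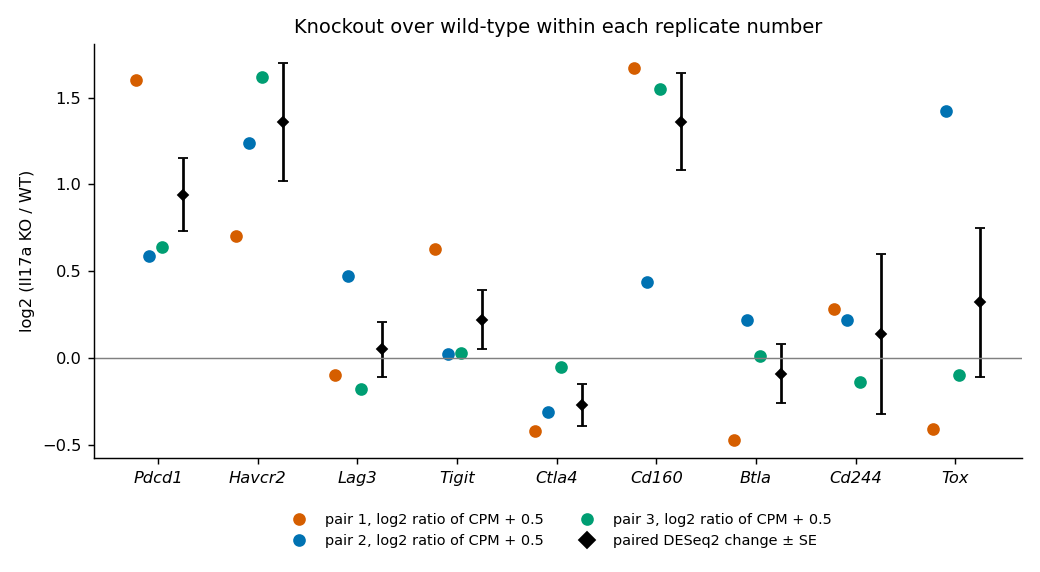
Log2 ratio of CPM + 0.5, knockout over wild-type, in each pair (coloured circles) and the paired DESeq2 log2 change with its SE (black diamonds) for the 9 genes. All 3 pairs lie above 0 for Pdcd1, Havcr2, Cd160 and Tigit and below 0 for Ctla4, and the Tox ratios run from -0.41 to 1.42.

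Ctla4 encodes the receptor that outcompetes CD28 for CD80 and CD86 and is abundant in regulatory T cells. Ctla4 (ENSMUSG00000026011, chromosome 1, 60887000 to 60915832, plus strand) was at 796, 1035 and 1332 CPM in knockout libraries 1, 2 and 3, against 1067, 1286 and 1381 CPM in wild-type libraries 1, 2 and 3. The knockout library was the lower one in each pair, with log2 ratios of -0.42, -0.31 and -0.05, and the groups overlapped. In the paired DESeq2 fit the log2 change was -0.27 (SE 0.12), with a 95% interval of -0.50 to -0.04 and an adjusted p of 0.282, so Ctla4 did not pass. The unpaired edgeR change was -0.24 (SE 0.21, adjusted p 0.9999).

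Tigit encodes a receptor for CD155 that competes with the stimulatory receptor CD226 and carries an inhibitory tyrosine motif. Tigit (ENSMUSG00000071552, chromosome 16, 43648861 to 43664184, minus strand) was at 135.2, 46.1 and 48.9 CPM in knockout libraries 1, 2 and 3, against 87.3, 45.6 and 47.8 CPM in wild-type libraries 1, 2 and 3. The number 1 libraries were high in both genotypes, and the other 4 lay close together. The log2 ratios were 0.63, 0.02 and 0.03, and the paired DESeq2 log2 change of 0.22 (95% interval -0.11 to 0.54, adjusted p 0.766) did not pass. Together with Pdcd1, Havcr2 and Cd160, Tigit made 4 of 9 genes that were higher in the knockout in all 3 pairs, a pattern shown by 16.6% of all tested genes.

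Lag3 encodes a CD4-related receptor that binds MHC class II. Lag3 (ENSMUSG00000030124, chromosome 6, 124904361 to 124911705, minus strand) was at 627, 280 and 268 CPM in knockout libraries 1, 2 and 3, against 671, 202 and 303 CPM in wild-type libraries 1, 2 and 3. The number 1 libraries of both genotypes held more than any other library, and the genotypes gave no common direction, with log2 ratios of -0.10, 0.47 and -0.18. In the paired DESeq2 fit the log2 change was 0.05, with a 95% interval of -0.25 to 0.36 and an adjusted p of 0.978.

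Btla encodes a receptor for HVEM found on B and T cells. Btla (ENSMUSG00000052013, chromosome 16, 45224315 to 45252895, plus strand) was at 69.5, 82.8 and 41.3 CPM in knockout libraries 1, 2 and 3, against 96.2, 71.1 and 41.1 CPM in wild-type libraries 1, 2 and 3. Number 3 was the low library in both genotypes, and the log2 ratios of -0.47, 0.22 and 0.01 had no common sign. The change in the paired DESeq2 fit was -0.09 (95% interval -0.42 to 0.24, adjusted p 0.954).

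Cd244 encodes 2B4, a receptor of the SLAM family that binds CD48 and is best known from NK and CD8 T cells. Cd244 (ENSMUSG00000004709, chromosome 1, 171559193 to 171585318, plus strand) was at 1.62, 2.13 and 1.13 CPM in knockout libraries 1, 2 and 3, against 1.25, 1.76 and 1.295 CPM in wild-type libraries 1, 2 and 3. Number 2 was highest in both genotypes. The log2 ratios were 0.28, 0.22 and -0.14, and the paired DESeq2 log2 change of 0.14 had a 95% interval of -0.75 to 1.04 (adjusted p 0.981), an interval too wide to settle the direction at this depth.

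Tox (ENSMUSG00000041272, chromosome 4, 6686353 to 6991557, minus strand) was at 6.10, 6.53 and 4.62 CPM in knockout libraries 1, 2 and 3, against 8.30, 2.12 and 4.99 CPM in wild-type libraries 1, 2 and 3. The knockout library was higher in pair 2 alone, where wild-type 2 was the lowest library of all, and the log2 ratios were -0.41, 1.42 and -0.10. The paired DESeq2 log2 change was 0.32 (95% interval -0.53 to 1.16, adjusted p 0.929), and without pair 2 it was -0.30.

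Of the 9 genes, 3 had more than one transcript with at least 10% of the gene's estimated counts: Ctla4, Havcr2 and Btla. Sequences at which their forms differ are shown so that the forms can be told apart. The forms also differ at their ends, by the deposited lengths most so for Ctla4, so the counts of a form need not come from these stretches alone. They were read from GENCODE M21 transcripts on GRCm38, matched by transcript ID, and are the reference strain's, not those of B10.RIII. Ctla4-001 (ENSMUST00000027164) has 4 exons, and Ctla4-002 (ENSMUST00000097720) lacks exon 3 (chr1:60913219-60913328, plus strand, 110 bases), which encodes the membrane-spanning segment, so that the form without it is known as soluble CTLA-4. In the junctions, capitals mark the exon downstream of the junction.
Ctla4 exon 3: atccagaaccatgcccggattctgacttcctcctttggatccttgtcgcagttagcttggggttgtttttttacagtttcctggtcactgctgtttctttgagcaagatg
Ctla4-001 junction of exons 2 and 3: agatttatgtcattgATCCAGAACCATGCC
Ctla4-002 junction of exons 2 and 4: agatttatgtcattgCTAAAGAAAAGAAGT

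Ctla4-001 was the main form in every library. Ctla4-002 took 25.7%, 13.8% and 38.3% of the gene per length in knockout libraries 1, 2 and 3, against 29.5%, 16.6% and 33.0% in wild-type libraries 1, 2 and 3. Number 2 had the lowest and number 3 the highest share in both genotypes, so the share went with the replicate number. The share of Ctla4-001 in estimated counts averaged 89.0% ± 5.88 in knockout and 89.0% ± 4.10 in wild-type libraries (SD, n = 3 each; exact two-sided permutation p = 1.0, with 0.1 the smallest that 3 against 3 allows). The noncoding form Ctla4-004, which begins upstream of the coding forms, held 0.285% to 0.738% of the gene's estimated counts.

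Havcr2-002 (ENSMUST00000109229) differs from Havcr2-001 (ENSMUST00000020668) by an intron inside exon 2 that removes 147 coding bases (chr11:46456285-46456431, plus strand) of the exon that encodes the ligand-binding immunoglobulin domain.
Bases of Havcr2 exon 2 absent from Havcr2-002: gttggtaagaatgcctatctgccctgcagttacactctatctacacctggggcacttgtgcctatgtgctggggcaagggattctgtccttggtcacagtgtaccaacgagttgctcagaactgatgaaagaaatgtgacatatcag
Havcr2-002 junction: gcttatgtgtttgagAAATCCAGCAGATAC

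Havcr2-001 held 133, 315 and 203 estimated counts in knockout libraries 1, 2 and 3, against 27.6, 126 and 38.3 in wild-type libraries 1, 2 and 3, and was higher in the knockout of every pair. Havcr2-002 held 99.3, 263 and 0.0865 estimated counts in knockout libraries, against 99.5, 83.3 and 9.95 in wild-type libraries, with no common direction. On transcripts, the paired DESeq2 log2 change of Havcr2-001 was 1.91 (SE 0.54, adjusted p 0.0370) and that of Havcr2-002 -0.59 (SE 1.28, adjusted p 1.0). The difference between these changes was not tested as such. Apart from the 147 bases above and their ends, the forms share their sequence, so the split of the counts is uncertain. Havcr2-002 took from 0.0426% of the gene's counts in knockout 3 to 78.3% in wild-type 1. The call of Havcr2-001 rests on that split. The share of Havcr2-001 in the gene's estimated counts was 70.6% ± 25.5 in knockout and 53.7% ± 29.4 in wild-type libraries (SD, n = 3 each), an exact two-sided permutation p of 0.6, or 0.9 adjusted over the 3 genes.

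Pdcd1-201, the single Pdcd1 transcript in the table, also rose on transcripts, with a paired DESeq2 change of 0.95 (SE 0.27, adjusted p 0.0353). It and Havcr2-001 were the 2 called of the 15 member transcripts with an adjusted p, against 1.25% of all transcripts with an adjusted p in that fit. Cd160-001 carried 95.3% of the Cd160 counts and had a paired DESeq2 change of 1.25 (SE 0.43, adjusted p 0.160), so the call made on the summed gene was not made on its main transcript. No member transcript passed in edgeR with or without the block, where 0.0% of all transcripts were called and Havcr2-001 had unadjusted p-values of 0.0115 and 0.0711.

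The Btla forms differ in coding sequence by 3 bases at the start of exon 4, shown in capitals. Btla-201 (ENSMUST00000063654) has them, starting at position 45244153 of chromosome 16 on the plus strand, and Btla-001 (ENSMUST00000102802) does not. With the deposited lengths of 3235 and 3251 nt, the forms otherwise differ by short stretches at their ends. The reads that tell them apart are then few, and the split of the counts is uncertain. GENCODE M21 holds a shorter Btla-201, of 1598 nt, and Btla-001 at 3251 nt.
Btla-201 junction of exons 3 and 4: aacacccactaataaCAGtatctgacatcc
Btla-001 junction of exons 3 and 4: aacacccactaataatatctgacatcccag

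Btla-201 took 52.1% ± 3.24 of the gene per length in knockout and 50.1% ± 4.91 in wild-type libraries (SD, n = 3 each; exact two-sided permutation p = 0.5). Lag3-001 and Tox-001 held 99.2% and 99.8% of the counts of their genes. Among genes overlapping a member in position, none exceeded 3.56 CPM in any library, a level that Rpl18-ps1 within the Ctla4 span reached.

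**Figure D4:**
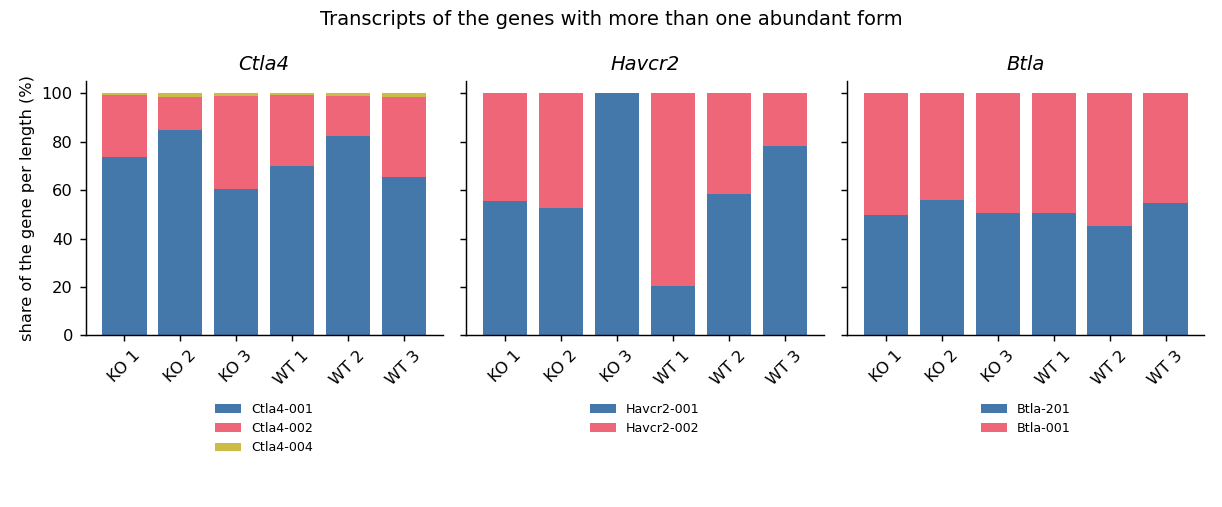
Share of each gene's level per transcript length taken by its transcripts, in percent, for Ctla4, Havcr2 and Btla, with 1 bar per library and knockout bars left of wild-type bars. Ctla4-002 (red) is smallest in the number 2 libraries, at 13.8% in knockout 2 and 16.6% in wild-type 2, and Havcr2-002 (red) ranges from 0.0458% in knockout 3 to 79.5% in wild-type 1.

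The promoters of the 3 genes that rose are shown because these genes moved in the same direction; of the 2 Cd160 start sites listed, that of the main transcript is used. RefSeq's table on GRCm38.p6 held promoters of 7 of the 9 genes, 250 bases before to 50 after a start site. Lag3 and Tox were not matched. Both strands were searched for the NFAT core GGAAA, the AP-1 site TGANTCA, the STAT site TTCNNNGAA and the RUNX site TGTGGT, and capitals mark each match. The Pdcd1 window is chr1:94052504-94052803 on the minus strand, the Havcr2 window chr11:46454681-46454980 on the plus strand, and the Cd160 window chr3:96814472-96814771 on the minus strand, at the start of Cd160-001.
Pdcd1: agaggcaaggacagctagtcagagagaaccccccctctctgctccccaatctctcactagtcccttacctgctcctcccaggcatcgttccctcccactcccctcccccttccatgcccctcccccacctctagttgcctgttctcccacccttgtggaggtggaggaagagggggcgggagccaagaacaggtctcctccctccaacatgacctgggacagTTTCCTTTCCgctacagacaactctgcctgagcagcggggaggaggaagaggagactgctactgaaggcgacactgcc
Havcr2: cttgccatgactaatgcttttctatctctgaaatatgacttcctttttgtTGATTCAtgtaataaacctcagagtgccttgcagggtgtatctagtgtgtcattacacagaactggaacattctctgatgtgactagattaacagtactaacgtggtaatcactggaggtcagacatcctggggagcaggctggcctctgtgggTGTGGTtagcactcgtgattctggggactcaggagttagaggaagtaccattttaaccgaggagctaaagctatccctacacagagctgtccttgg
Cd160: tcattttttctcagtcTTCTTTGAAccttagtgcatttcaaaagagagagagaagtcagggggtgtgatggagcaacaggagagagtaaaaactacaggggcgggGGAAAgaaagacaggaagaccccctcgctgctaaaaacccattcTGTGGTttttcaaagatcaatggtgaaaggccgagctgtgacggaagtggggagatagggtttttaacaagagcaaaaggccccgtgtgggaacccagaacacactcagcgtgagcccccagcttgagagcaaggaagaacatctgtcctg

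No motif was common to these 3 windows. Pdcd1 held 2 adjoining NFAT cores, Havcr2 1 AP-1 site and 1 RUNX site, and Cd160 1 STAT site, 1 NFAT core and 1 RUNX site. Of all 32817 promoter windows, 61.3% held the NFAT core, 7.81% the AP-1 site, 8.29% the STAT site and 16.8% the RUNX site. A match describes letters in the window and not a site in use.

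The libraries' order of Pdcd1, Havcr2 and Cd160 was set beside that of 12666 other genes with a mean of at least 1 CPM. Likeness was the root mean square difference of log2(CPM + 0.5), centred on each gene's mean, over the 6 libraries. The genes compared were measured in the same libraries, and so share the differences in culture and depth between them. Closest to Pdcd1 was Ncald, at 0.19 against a spread of 0.89 for Pdcd1 itself, followed by Cnrip1 (0.20) and Zbtb32 (0.28). Closest to Cd160 were Crtam (0.35), Rgs8 (0.44) and the CD8 coreceptor gene Cd8a (0.54), against a spread of 1.71 for Cd160. Closest to Havcr2 were Aldh3b1 (0.23), Pilra, an inhibitory receptor gene known from myeloid cells (0.24), and 1700012B07Rik (0.30), against a spread of 0.91 for Havcr2.

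The other members had other neighbours. Lag3 was closest to Mid1 (0.12), Kcnc1 (0.15) and Dock9 (0.16), Tigit to Rai14 (0.10), Ybx3 (0.12) and Wars (0.12), and Ctla4 to Elovl6 (0.04), Ninj1 (0.05) and Lrrc51 (0.07). Btla was closest to Trav12-2 (0.09), Arhgef18 (0.10) and 1700094D03Rik (0.11), Cd244 to Nabp1 (0.06), Gm13375 (0.06) and Nxt2 (0.07), and Tox to Gm15441 (0.18), 5730409E04Rik (0.19) and Ccdc142 (0.19). Among the 9 genes the closest match was Lag3 with Tigit (0.27), and Pdcd1 was closer to Tigit (0.40) than to Havcr2 (1.18).

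**Figure D5:**
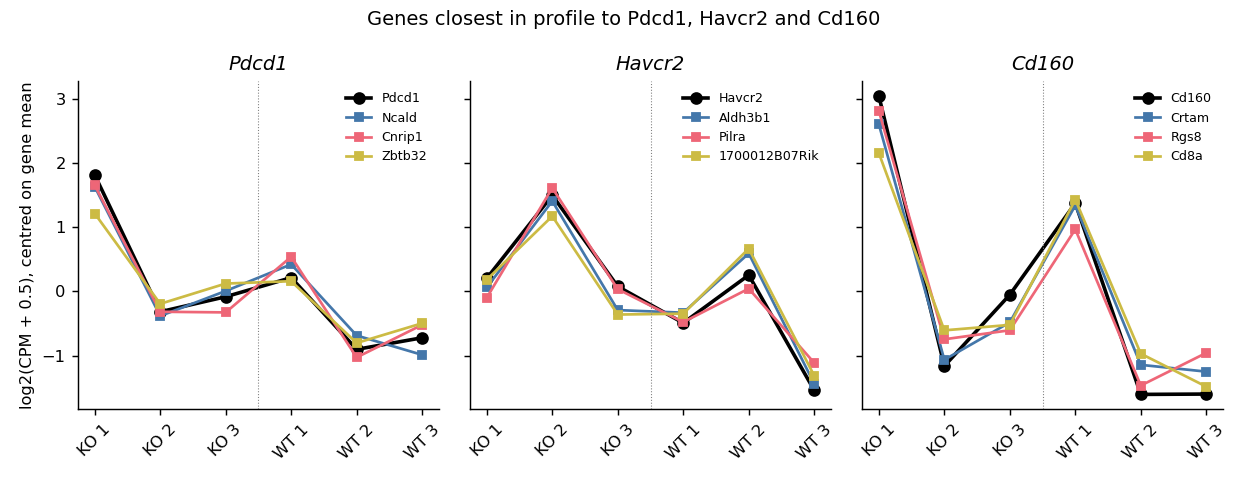
Centred log2(CPM + 0.5) of Pdcd1, Havcr2 and Cd160 (black) and of the 3 genes closest to each, over the 6 libraries, with knockout libraries left of the dotted line and wild-type libraries right of it. Pdcd1 and Cd160 peak in knockout 1, where Cd160 is at 59.0 CPM, and Havcr2 peaks in knockout 2, at 11.8 CPM.

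Some markers of other cell types were also higher in the knockout. CD8 T cell markers summed to 1334, 1169 and 1440 CPM in knockout libraries 1, 2 and 3, against 1747, 967 and 864 CPM in wild-type libraries 1, 2 and 3, and 2 of 6 rose in the paired DESeq2 fit, Cd8a (0.68) and the lectin receptor gene Klrc1 (0.81). The CD8 sum is carried by the granzyme gene Gzma, at 423, 988 and 1245 CPM in knockouts 1, 2 and 3, against 1139, 831 and 751 CPM in wild-types 1, 2 and 3, which was lower in the knockout in pair 1. The pair ratios of Cd8a were 0.73, 0.36 and 0.96, beside 1.60, 0.59 and 0.64 for Pdcd1 and 1.67, 0.44 and 1.55 for Cd160. Of 8 NK cell markers, which share Gzma and Prf1 with the CD8 list, 2 rose, Klrd1 (0.67) and Klrk1 (0.70), and the list summed to 1133 to 1453 CPM in knockouts, against 857 to 1568 CPM in wild-types. The NK-defining gene Ncr1 stayed near 0 in every library, at 0.0978 to 0.286 CPM in knockouts, against 0.123 to 0.272 CPM in wild-types.

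Myeloid markers, of which 4 of 10 tested rose (Mpeg1, Itgam, Clec7a and Ctss), summed to 293, 435 and 131 CPM in knockout libraries 1, 2 and 3, against 224, 280 and 85.2 CPM in wild-type libraries 1, 2 and 3. Number 2 was the high library in both genotypes for this sum, as it was for Havcr2. The macrophage gene Emr1 was at 0.818 CPM or less in all 6 libraries. Of the B cell genes, Igkc, Blk, Ms4a1 and Cd22 rose. Cd22, a B cell lectin receptor gene, had 94.0, 36.7 and 8.399 CPM in knockouts 1, 2 and 3, against 37.2, 14.4 and 8.11 CPM in wild-types 1, 2 and 3. It was highest in the number 1 libraries, as Pdcd1 was, and nearly equal within pair 3. Igkc, the kappa light chain constant gene, had 256, 247 and 265 CPM in knockouts, against 128, 122 and 89.2 CPM in wild-types, with no overlap. No dendritic cell marker of 4 tested passed, with Xcr1 at 1.00 to 1.98 CPM in knockouts, against 0.338 to 1.27 CPM in wild-types, and Siglech was at 0 in all libraries. Blk, also a B cell marker, was the 1 of 7 gamma-delta T cell genes to rise. The part of these markers, and of the sex-linked transcripts, in the rise of Pdcd1, Havcr2 and Cd160 was not tested. In pair 3, whose libraries both expressed Xist, the log2 ratios of these 3 genes were 0.64, 1.62 and 1.55. That pair has 1 library per genotype. Its log2 ratio of Cd8a was 0.96. Of the myeloid markers, Itgam was at 1.16, Mpeg1 at 0.56 and Lyz2, which was not called, at 2.32. The median over the tested myeloid markers was 0.63 in that pair. The B cell genes named above were at 1.56 for Igkc, 0.68 for Blk, 0.57 for Ms4a1 and 0.05 for Cd22.

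Of the T cell markers 0 of 9 passed, with a median paired log2 change of 0.00, and Zap70 was the one of smallest p in the unpaired test (log2 change -0.18). Markers of regulatory T cells, a cell type rich in Ctla4, had 4 of 8 that fell (Lrrc32, Tnfrsf18, Foxp3 and Gpr83) and 1 that rose (Itgae). Their sum was 1667, 2345 and 2986 CPM in knockout libraries 1, 2 and 3, against 1700, 3198 and 3396 CPM in wild-type libraries 1, 2 and 3. Ctla4 was likewise lowest in the number 1 library of each genotype. Foxp3 was also lowest there but highest in number 2, where Ctla4 was highest in number 3. Foxp3 had 11.3, 25.2 and 14.8 CPM in knockouts 1, 2 and 3, against 14.7, 48.2 and 30.9 CPM in wild-types. Its log2 ratios in pairs 1, 2 and 3 were -0.37, -0.92 and -1.03, beside -0.42, -0.31 and -0.05 for Ctla4.

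None of the ligand genes tested passed after adjustment. Genes of MHC class II, which LAG-3 binds, were not among them. Of 13 tested ligand genes, 0 were called in either direction in the paired DESeq2 fit, with a median log2 change of 0.16, and 8 of 13 lay above 0. Cd48, the ligand of 2B4, was the ligand gene of smallest unpaired p, at 90.7 ± 8.08 CPM in knockouts and 69.1 ± 10.7 CPM in wild-types (SD, n = 3 each; edgeR unadjusted p 0.0429, paired DESeq2 adjusted p 0.0633). Its ranges did not overlap. Genes of the signalling machinery behind these receptors, among them phosphatases, adaptors and diacylglycerol kinases, gave 0 of 20 called and a median paired log2 change of 0.05. Dgka, the diacylglycerol kinase of smallest unpaired p in that list, differed by -0.31 (SE 0.13, paired DESeq2 adjusted p 0.287).

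Of 11 tested further inhibitory receptors, 1 rose. Cd96, a receptor for CD155 as TIGIT is, was at 101.5, 38.6 and 27.2 CPM in knockout libraries 1, 2 and 3, against 59.5, 21.6 and 16.6 CPM in wild-type libraries 1, 2 and 3. Its paired DESeq2 log2 change was 0.76 (SE 0.13, adjusted p 9.05e-07), and the adjusted p was 0.220 in paired edgeR and 0.148 in paired limma-voom. The number 1 libraries were high in both genotypes, as for Pdcd1, Tigit and Lag3.

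Of 9 activating receptors, several of them of the same families, 3 fell and 0 rose. Slamf1 fell by 0.66 (SE 0.16, paired DESeq2 adjusted p 0.00499) and Cd2, the receptor for CD48, by 0.48 (SE 0.12, paired DESeq2 adjusted p 0.00701). Tnfrsf18, which encodes GITR, fell by 0.52 (SE 0.12, paired DESeq2 adjusted p 0.00206). It is also among the regulatory T cell markers counted above. The list's median paired log2 change was -0.31, beside 0.22 for the 9 genes and 0.00 for all genes tested.

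Of 22 tested transcription factor genes linked to exhaustion or to these receptors, 2 rose and 1 fell. Tbx21, which encodes T-bet, rose by 0.74 (SE 0.16, paired DESeq2 adjusted p 7.43e-04) and was at 28.8 ± 28.6 CPM in knockouts and 16.6 ± 15.9 CPM in wild-types (SD, n = 3 each). Egr3, a factor induced by antigen receptor signalling, rose by 1.51 (SE 0.46, paired DESeq2 adjusted p 0.0430). Its level was low, at 6.39, 2.01 and 2.37 CPM in knockouts 1, 2 and 3, against 2.85, 0.338 and 1.17 CPM in wild-types. Wild-type 2 held 15 counts of it. Paired edgeR and paired limma-voom gave Egr3 adjusted p-values of 0.387 and 0.280. Foxp3, the regulatory T cell factor also counted among the markers of that cell type above, fell by 0.81 (SE 0.19, paired DESeq2 adjusted p 0.00286). The Tox relatives Tox2 and Tox4 had paired changes of -0.40 and -0.04 and did not pass, and Tox3 was at 0 in all libraries. The list's median paired log2 change was 0.10.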

How the data were processed

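The deposited table held estimated counts per transcript, per the file headers, with each transcript's length, used for TPM and a length filter, and GC content as a fraction, which entered no test. The submitters' processing notes name Bowtie2 2.1.0, eXpress 1.3.1 and GRCm38. Which annotation release and strand setting were used is not stated in those sources. Libraries were stranded mRNA, per the labels' protocols.

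Per gene, the estimated counts of all transcripts were added up and rounded. edgeR 4.0.16 (quasi-likelihood, TMM, filterByExpr defaults, no block) was the main test, on 15121 genes. edgeR SEs are the log2 change divided by the square root of F. DESeq2 1.42.0 and limma 3.58.1 (voom) were alternatives, and each of the 3 tools was also run blocked on replicate number. What a number marks is not in the labels, and pairing came from the data: every same-number correlation of deviations exceeded 0.1. Paired DESeq2 left 880 of the tested genes without an adjusted p. Intervals are 1.96 SE either side. The gene-level fits of the 3 tools on all 6 libraries, with and without the block, were run on simulated data. That check was judged on the size and sign of known changes. It also computed the shares of known changes recovered and of false calls. It set no limit on these shares, and they are not given here. The fits with other settings, with libraries left out or on transcripts were not simulated. Other software was R 4.3.3, Python 3.11.15, scipy 1.17.1, pandas 2.3.3 and matplotlib 3.10.9.

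All pairs of libraries differed by more than sampling noise (chi-square over genes, at least 56.9 per degree of freedom). The 9 genes, the lists and the tests were chosen with earlier results of these data known. Named list genes were those past the main or paired DESeq2 test, at most 6 a list, or else the gene of smallest main p, and the 3 closest genes for each member. Cd4, Gzma, Prf1, Ncr1, Lyz2, Emr1, Siglech, Rpl18-ps1 and the Tox relatives fall outside this rule and were named after their values were seen. CPM floors for a count of 0 are about 0.06 and cover counting error only. Totals over the B cell marker list are not reported here.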

Additional observations from a re-analysis of the deposited data

How the results depend on the processing

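The number of genes called was 0 in the main edgeR test, 13 in DESeq2 without the block, 381 in paired DESeq2 and 0 in paired edgeR, paired and unpaired limma-voom, RLE scaling, no filter and without transcripts under 300 nt. Leaving out 1 library or 1 replicate number gave 0 to 1 genes in edgeR and 149 to 264 in paired DESeq2 (176 without replicate 1). Of the 9 genes, the replicate block gave 3 called in DESeq2, and 1 to 2 without any 1 replicate number; it changed no call in edgeR or limma-voom. Member transcripts called were 0 in edgeR and 2 with the replicate block in DESeq2.

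Pdcd1, Havcr2 and Ctla4 kept their sign in all 20 alternatives, with log2 changes of 0.18 to 1.63, 0.62 to 1.93 and -0.47 to -0.08. The sign of Lag3, near 0 in the main test, turned positive with the replicate block in edgeR (0.06), DESeq2 (0.05) and limma-voom (0.08), and in limma-voom without it (0.06). Leaving out 1 library or number, the edgeR ranges that cross 0 were -0.53 to 0.63 for Lag3, -0.35 to 0.71 for Tigit, -0.68 to 3.58 for Cd160, -0.39 to 0.20 for Btla, -0.08 to 0.36 for Cd244 and -0.31 to 0.69 for Tox. In paired DESeq2 without 1 replicate number they were -0.16 to 0.18 for Lag3 (0.15 without replicate 1), -0.25 to 0.12 for Btla and -0.30 to 0.75 for Tox. The cause was not tested. Depth was lowest for Havcr2 and Cd244, with as few as 48 and 56 counts in a library, and the smallest detectable change was not measured.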
